A study of Mus musculus with 8 samples.

Results

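Hmgcs1, Idi1, Fdps, Fdft1, Sqle, Lss and Cyp51 encode 7 enzymes of cholesterol synthesis, and they are described here in fetal mouse germ cells that lost Snf5. Snf5, whose official symbol is Smarcb1, encodes a central component of SWI/SNF, a family of complexes that move nucleosomes. The genes were taken by name from the enzymes of this pathway, and all 7 were found in both tables, among 23694 named genes in the female table and 23409 in the male table. They were chosen with earlier results of these data in view.

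Germ cells of E15.5 embryos were profiled by RNA-Seq in 8 libraries, with 2 control and 2 Snf5 CKO libraries for each sex. Snf5 CKO embryos carried 1 floxed allele and 1 deleted allele of Snf5 with TNAP-Cre (Snf5fx/Δ + TNAP-Cre). TNAP-Cre is expressed from the Alpl gene and recombines in primordial germ cells, but not in every cell. The controls were a mixture of 3 genotypes, which were Snf5fx/Δ and Snf5fx/+ without Cre and Snf5fx/+ carrying TNAP-Cre, so part of them also carried a deleted allele or Cre. Germ cells of all groups were isolated by Oct4-EGFP, a fluorescent reporter driven by the Oct4 promoter. The cells of several embryos were pooled for a library in both control groups and in female Snf5 CKO. For male Snf5 CKO every listed sample came from 1 mouse, with 2 such samples listed for replicate 1. The labels give the strain as C57BL/6, whereas the methods describe a mixed background. The values are FPKM (fragments per kilobase of transcript, scaled to sequencing depth), which compare levels between genes per length.

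The libraries were first checked against their labels. Smarcb1 was at 23.4 and 22.3 FPKM in the female controls and 4.24 and 2.47 in the female Snf5 CKO libraries, and at 141 and 167 in the male controls against 8.73 and 10.1 in the male Snf5 CKO libraries. Of 6 germ cell genes, Ddx4 and Dazl lay between 203 and 997 FPKM in all 8 libraries. Dppa3 (41.2 to 2979 FPKM), Pou5f1 (8.63 to 648), Dnd1 (4.94 to 729) and Kit (8.25 to 63.8) were low in some of them. Unnamed loci took from 5.46% to 42.1% of a library's FPKM. Counts are not in the tables, so the depth is unknown, and the confidence bounds that the tables give for each value were not used. The replicates are described as biological duplicates.

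Cholesterol is built from acetyl-CoA by a chain of enzymes, first through mevalonate to isoprenoid units, then through squalene, and then from lanosterol to cholesterol. The genes of these enzymes are known shared targets of SREBP-2 (the product of Srebf2), a membrane-bound transcription factor that is released by proteolysis when sterols in the endoplasmic reticulum are low. Cholesterol is needed for membranes of growing cells, and in the gonad it is also the substrate from which Leydig cells make steroid hormones.

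The SREBP proteins act through sterol regulatory elements near the start of such genes, commonly beside binding sites of the factors NF-Y (CCAAT box) and Sp1 (GC box). The RefSeq promoter table (GRCm38.p6) held 4 of the 7 genes, Hmgcs1, Idi1, Lss and Cyp51, each as 300 bases from 250 before to 50 after the start site. The 3 motifs searched were TCANNCCAC (an element like the sterol regulatory element), CCAAT and GGGCGG, on both strands. The promoters of Hmgcs1, which rose in females, of Cyp51, which rose in males, and of Lss, which rose in males and whose female Snf5 CKO libraries lay below the controls, are shown because the results below turn on these genes. Each is read 5′ to 3′ on the strand of the gene, and capitals mark matches to any of the 3 motifs on either strand.
Hmgcs1, chr13:119690101-119690400, plus strand: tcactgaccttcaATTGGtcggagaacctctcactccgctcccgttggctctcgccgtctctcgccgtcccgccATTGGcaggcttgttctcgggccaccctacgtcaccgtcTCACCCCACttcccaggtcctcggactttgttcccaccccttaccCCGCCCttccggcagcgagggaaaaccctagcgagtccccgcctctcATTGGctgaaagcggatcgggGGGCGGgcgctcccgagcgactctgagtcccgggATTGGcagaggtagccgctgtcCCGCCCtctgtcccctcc
Cyp51, chr5:4104648-4104947, minus strand: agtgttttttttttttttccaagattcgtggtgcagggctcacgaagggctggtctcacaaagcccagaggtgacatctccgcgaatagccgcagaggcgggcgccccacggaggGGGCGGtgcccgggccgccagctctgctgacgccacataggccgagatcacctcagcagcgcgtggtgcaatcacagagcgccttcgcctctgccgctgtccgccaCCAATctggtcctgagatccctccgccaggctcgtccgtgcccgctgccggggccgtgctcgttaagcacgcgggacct
Lss, chr10:76531355-76531654, plus strand: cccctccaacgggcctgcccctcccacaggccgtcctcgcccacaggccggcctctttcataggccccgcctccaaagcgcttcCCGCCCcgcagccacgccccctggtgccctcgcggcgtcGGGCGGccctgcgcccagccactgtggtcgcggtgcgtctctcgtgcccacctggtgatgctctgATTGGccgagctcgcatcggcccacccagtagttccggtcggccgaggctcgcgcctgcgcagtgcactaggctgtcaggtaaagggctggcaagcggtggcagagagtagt

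The motif TCANNCCAC was found in the Hmgcs1 promoter, 137 bases upstream of the start site, and not in these windows of Idi1, Lss or Cyp51. It is present in 4.19% of the 32544 mouse promoters of the same length. CCAAT had 4 matches at Hmgcs1, 2 at Idi1 and 1 each at Lss and Cyp51, and 37.4% of all promoters hold it. GGGCGG had 3 matches at Hmgcs1, 2 at Lss and 1 each at Idi1 and Cyp51, against 35.9% of all promoters with a match. Only exact matches to these patterns were searched, so an element that differs from them would be missed. A window without a match can therefore still hold such an element. The matches are descriptions of the sequence and do not show binding.

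Levels of the 7 genes differed widely within a library. Fdps, which makes farnesyl pyrophosphate at the branch point to sterols and other isoprenoids, was the highest in all 4 groups, at 99.9 ± 21.3 FPKM in female controls (SD, n = 2) and 235 ± 16.6 in male controls. In female controls Idi1 (33.2 ± 5.60) and Sqle (30.1 ± 3.52) followed and overlapped, and then came Hmgcs1 (19.2 ± 0.584), Fdft1 (9.70 ± 0.0814), Cyp51 (9.16 ± 0.176) and Lss (5.77 ± 0.731), each apart from the next. In male controls the order was Fdft1 (101 ± 7.08), Hmgcs1 (55.6 ± 12.2), Idi1 (39.1 ± 0.0773), Sqle (28.7 ± 6.09), Lss (6.10 ± 1.27) and Cyp51 (5.32 ± 0.523), of which only Lss and Cyp51 overlapped.

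The order was rearranged in the Snf5 CKO libraries. In female Snf5 CKO germ cells Hmgcs1 (45.8 ± 10.1 FPKM) and Idi1 (43.8 ± 0.220) stood next to Fdps and overlapped. In male Snf5 CKO germ cells Hmgcs1 (65.7 ± 14.5), Fdft1 (55.8 ± 2.95), Sqle (52.2 ± 17.7) and Idi1 (49.0 ± 7.52) each overlapped the next. Cyp51 (19.0 ± 5.04) stood above Lss (12.7 ± 2.97) there, with no overlap. The tables of the sexes were normalized separately, so levels were not tested between them. In controls the largest ratio between the sexes was that of Fdft1, at 9.70 FPKM in female controls and 101 in male controls.

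**Figure D1:**
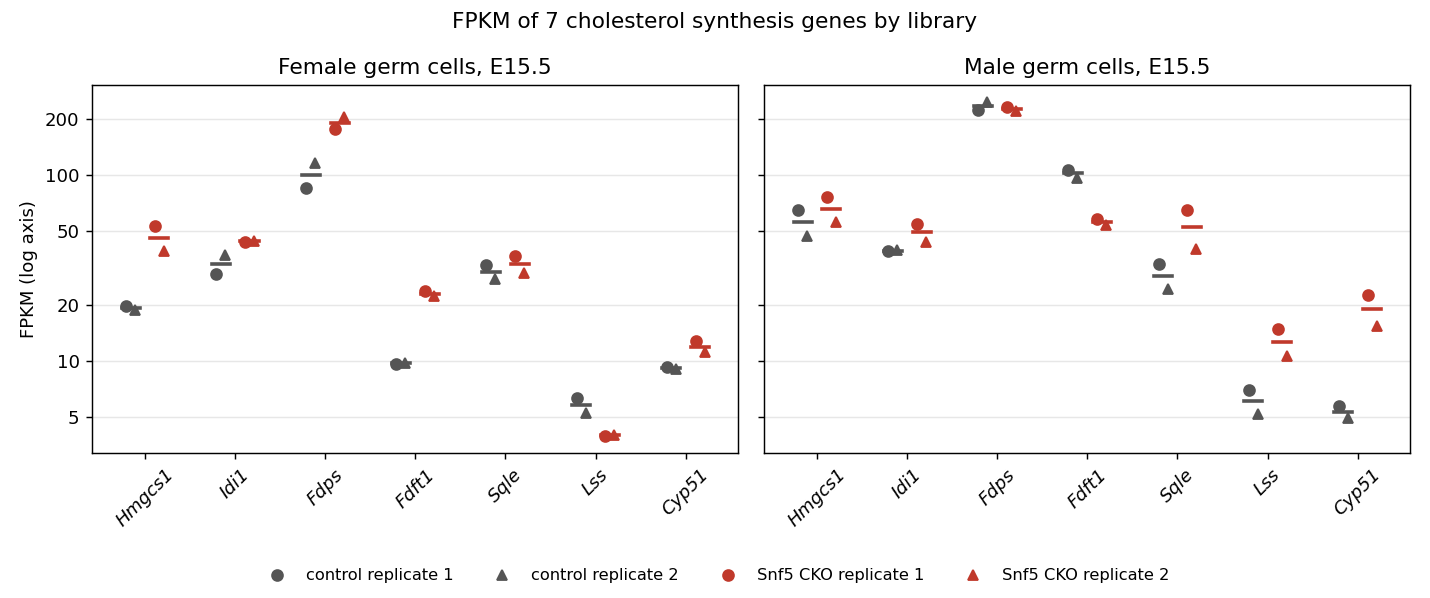
FPKM of the 7 genes in each library (log axis), with female germ cells on the left and male germ cells on the right. Points are libraries (circles replicate 1, triangles replicate 2), grey for control and red for Snf5 CKO, and bars are means of 2 libraries. Hmgcs1 and Fdft1 of females and Cyp51 of males have both Snf5 CKO points well above the controls, whereas Fdft1 of males has both below.

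In female Snf5 CKO germ cells, Hmgcs1, Fdps and Fdft1 rose. Each sex was fitted with limma on log2(FPKM + 1), and fold changes below are on this scale. Rose and fell are used for a Benjamini-Hochberg adjusted p under 0.05 over all tested genes, and a gene is named called when its absolute log2 fold change was also at least 1. Of the 7 genes, 2 were called higher, beside 17.3% of all 11529 tested genes, and 3 rose, beside 26.9%. None was called lower, beside 21.6% of tested genes, none fell, beside 34.6%, and none was lower at an unadjusted p under 0.05. Both Snf5 CKO libraries exceeded both controls for 5 of the 7 genes, beside 36.4% of tested genes, and lay below both for 1, beside 45.1%. The median log2 fold change of the 7 genes was 0.40 and that of all tested genes was -0.13. Over the settings of the fit that kept all 7 genes, their median ran from 0.40 to 0.56 (median-of-ratios rescaling). With a filter at a mean of 5 FPKM, which left Lss out, the median was 0.66. It ran from 0.36 to 0.57 with single libraries left out.

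Hmgcs1, the cytosolic synthase that joins acetoacetyl-CoA and acetyl-CoA to HMG-CoA, was at 19.6 and 18.8 FPKM in the female controls and at 52.9 and 38.7 in the Snf5 CKO libraries. The groups did not overlap, and the ratio of means was 2.39 (log2 fold change 1.20, SE 0.20, adjusted p 0.00229). The call rested on Snf5 CKO replicate 1 for its size: without this library the log2 fold change was 0.97. Without moderation of variances the adjusted p was 0.0813. The gene lies on chromosome 13 at chr13:119690379-119708260 on the plus strand (GRCm38, GENCODE M21, as for the other positions below).

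Idi1, which isomerizes isopentenyl pyrophosphate to dimethylallyl pyrophosphate (chr13:8885501-8892451, plus strand), was at 29.3 and 37.2 FPKM in the female controls and at 43.6 and 43.9 in the Snf5 CKO libraries. Both Snf5 CKO libraries were above the controls, but the difference did not pass the test (log2 fold change 0.40, adjusted p 0.0982). With a block of replicate number the adjusted p was 0.0185, and without control replicate 1 the log2 fold change was 0.23 (adjusted p 0.473).

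Fdps (chr3:89093588-89101959, minus strand) was at 84.8 and 115 FPKM in the female controls and at 175 and 204 in the Snf5 CKO libraries. It rose 1.90-fold by the ratio of means and stayed below the fold threshold for a call (log2 fold change 0.93, SE 0.22, adjusted p 0.00950). It passed the fold threshold with median-of-ratios rescaling (1.09, adjusted p 0.00762). The same held when control replicate 2 (1.15) or Snf5 CKO replicate 1 (1.04) was left out. Without control replicate 1 the log2 fold change was 0.71 and did not pass the test (adjusted p 0.0657), nor did it without moderation of variances (adjusted p 0.118). The locus overlaps an additional annotated gene model, Gm43738, on the same strand.

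Fdft1, squalene synthase, which commits farnesyl pyrophosphate to sterols (chr14:63145150-63179578, minus strand), was at 9.65 and 9.76 FPKM in the female controls and at 23.7 and 22.2 in the Snf5 CKO libraries. Replicates were close and the groups far apart, with a ratio of means of 2.37 (log2 fold change 1.16, SE 0.17, adjusted p 0.00127). The opposite-strand neighbour Ctsb, a lysosomal protease gene that shares the locus in the table, was at 12.8 and 11.5 FPKM in the controls and at 21.6 and 18.8 in Snf5 CKO libraries (log2 fold change 0.69, adjusted p 0.0139). The library kit does not mark strand, so reads from the overlap of both genes cannot be told apart.

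Of the 7 genes, Sqle, Lss and Cyp51, like Idi1, did not pass the test in females. Sqle, squalene epoxidase (chr15:59315077-59331192, plus strand), was at 32.5 and 27.6 FPKM in the controls and at 36.5 and 29.5 in the Snf5 CKO libraries. These ranges overlapped, and the log2 fold change was 0.13 with a 95% interval from -0.32 to 0.58 (adjusted p 0.577).

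Lss, lanosterol synthase, which closes the sterol rings (chr10:76531588-76557138, plus strand), was at 6.29 and 5.25 FPKM in the female controls and at 3.93 and 4.02 in the Snf5 CKO libraries. It was the only gene of the 7 with both Snf5 CKO libraries below the controls in females, and the difference did not pass the test (log2 fold change -0.44, adjusted p 0.0851). With the replicate block the adjusted p was 0.0386.

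Cyp51, lanosterol 14-alpha-demethylase (chr5:4081145-4104746, minus strand), was at 9.28 and 9.03 FPKM in the female controls and at 12.8 and 11.1 in the Snf5 CKO libraries. The groups did not overlap, and the difference did not pass the test (log2 fold change 0.35, adjusted p 0.135). The replicate block gave an adjusted p of 0.0433.

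Markers of other states and cells also differed between the female groups. Of 6 germ cell genes, 4 were called higher in Snf5 CKO (Pou5f1, Dppa3, Dnd1 and Kit), beside 17.3% of all tested genes. The other 2 had both Snf5 CKO libraries below both controls, beside 45.1%, without passing the test. These were Ddx4 (363 and 296 FPKM against 249 and 203) and Dazl (771 and 888 against 630 and 631). The list's summed level was 1201 and 1283 FPKM in controls and 2786 and 3024 in Snf5 CKO libraries. Most of this rise came from Dppa3 (41.2 and 61.3 against 1406 and 1632.5). Pou5f1 is the endogenous gene of the Oct4 promoter used for sorting, and it was at 8.63 and 16.7 FPKM in the female controls and at 295 and 333 in the Snf5 CKO libraries. Of 5 pre-granulosa cell genes, 4 rose and 1 fell (26.9% and 34.6% of all tested genes). Their summed levels were 7.47 and 9.76 FPKM in controls and 18.1 and 15.4 in Snf5 CKO libraries. Of the 4, Foxl2 and Wnt4 averaged 0.728 and 0.967 FPKM in controls, below the mean of 1 FPKM needed for a test. They were tested only through the Snf5 CKO group, so the count of 4 was favoured by the filter. The 5 Leydig cell genes summed to 4.74 and 4.89 FPKM in controls and 12.0 and 11.8 in Snf5 CKO libraries, mostly from a locus that merges Insl3 with Jak3. The 6 Sertoli cell genes summed to 2.89 and 5.39 FPKM against 10.6 and 11.9, mostly from Aard (2.72 and 4.35 against 9.63 and 10.3). The rest of that list was at most 0.818 FPKM in any female library and was below the filter. The 5 stromal genes summed to 5.88 and 2.11 against 0.916 and 1.54, and the 6 blood and endothelial genes to 23.8 and 98.7 against 27.4 and 83.9. In the last list Pecam1, which germ cells also express, was called higher, from 4.10 and 3.65 to 24.3 and 19.7 FPKM (log2 fold change 2.23, adjusted p 0.0002), while Cdh5 and Kdr were at most 0.390 FPKM in the female libraries. Dhh, a Sertoli cell gene, was listed at 0 in both female controls. The part of these cells and states in the differences of the 7 genes was not tested. In bulk samples a smaller number of cells of a type and less RNA per cell cannot be told apart.

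In male Snf5 CKO germ cells, Lss and Cyp51 rose and Fdft1 fell. Of the 7 genes, 1 was called higher, beside 14.4% of the 12279 tested genes, which is about the background, and 2 rose, beside 21.0%. None was called lower, beside 17.4%, while 1 fell, beside 25.3%, and that 1 gene was also the count at an unadjusted p under 0.05. Both Snf5 CKO libraries exceeded both controls for 4 genes, beside 34.5% of tested genes, and lay below both for 1, beside 40.0%. The median log2 fold change of the 7 genes was 0.31, against -0.07 for all tested genes. The median of the 7 ran from 0.13 (common sum) to 0.47 (median-of-ratios rescaling) over the settings of the fit, and from 0.16 (without Snf5 CKO replicate 1) to 0.46 with single libraries left out.

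Cyp51 was at 5.69 and 4.95 FPKM in the male controls and at 22.6 and 15.5 in the Snf5 CKO libraries. The lower Snf5 CKO library was 2.72 times the higher control, and the ratio of means was 3.58 (log2 fold change 1.64, SE 0.24, adjusted p 0.00635). The call was lost without moderation of variances (adjusted p 0.0901) and in a fit on linear FPKM (adjusted p 0.0533). The neighbour Mterf1b, which shares the locus in the male table, stayed between 0.887 and 1.15 FPKM in the 4 libraries. Akap9, a scaffold protein gene whose annotated model overlaps Cyp51 on the opposite strand, was at 2.33 and 1.74 FPKM in the male controls and at 5.79 and 4.61 in Snf5 CKO libraries (log2 fold change 1.03, adjusted p 0.0158). The female log2 fold change of Akap9 was -0.81, with an adjusted p of 0.0406. Reads from the overlap of Akap9 and Cyp51 cannot be told apart without strand.

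Lss was at 7.0 and 5.21 FPKM in the male controls and at 14.8 and 10.6 in the Snf5 CKO libraries. It rose 2.08-fold by the ratio of means (log2 fold change 0.94, SE 0.25, adjusted p 0.0331), with an adjusted p between 0.0300 and 0.153 when single libraries were left out. The rise did not pass with a common sum (adjusted p 0.230), no filter (0.0515), no moderation of variances (0.167) or linear FPKM (0.0944). Its log2 fold change was 1.16 without Snf5 CKO replicate 2.

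Sqle was at 33.0 and 24.4 FPKM in the male controls and at 64.7 and 39.7 in the Snf5 CKO libraries. Both Snf5 CKO libraries were above the controls, but they were far from each other, and the difference did not pass the test (log2 fold change 0.81, SE 0.30, adjusted p 0.0777). With single libraries left out the adjusted p ran from 0.0253, without Snf5 CKO replicate 2 (log2 fold change 1.16), to 0.291, without Snf5 CKO replicate 1 (0.47), and with the replicate block the adjusted p was 0.000637.

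Fdft1 was at 106 and 96.4 FPKM in the male controls and at 57.9 and 53.8 in the Snf5 CKO libraries. It fell to 0.551 of the control mean (log2 fold change -0.85, SE 0.17, adjusted p 0.0142), short of the fold threshold for a call. With libraries rescaled to a common sum the log2 fold change was -1.04 (adjusted p 0.0448). The adjusted p lay between 0.0575 and 0.0947 when single libraries were left out. Ctsb at the same locus was at 28.5 and 30.0 FPKM in the controls and at 25.7 and 28.1 in Snf5 CKO libraries (log2 fold change -0.12, adjusted p 0.589).

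Hmgcs1, Idi1 and Fdps did not pass the test in males. Hmgcs1 was at 64.2 and 47.0 FPKM in the controls and at 76.0 and 55.5 in the Snf5 CKO libraries, and the ranges overlapped (log2 fold change 0.24, 95% interval -0.41 to 0.89, adjusted p 0.476). Its log2 fold change ran from 0.015 to 0.46 when single libraries were left out. Fdps was at 222.9 and 246 FPKM in the controls and at 231 and 220.3 in the Snf5 CKO libraries, also with overlap (log2 fold change -0.05, 95% interval -0.56 to 0.45, adjusted p 0.840). Idi1 was at 39.1 and 39.2 FPKM in the controls and at 54.3 and 43.7 in the Snf5 CKO libraries, which were above both controls without passing the test (log2 fold change 0.31, adjusted p 0.222), and its log2 fold change ran from 0.16 to 0.46 with single libraries left out. With the replicate block the adjusted p was 0.0123 for Hmgcs1 and 0.0275 for Idi1.

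Markers of testis cells also differed between the male groups. All 6 Sertoli cell genes were called higher, beside 14.4% of all tested genes. Their summed levels were 82.8 and 69.5 FPKM in the male controls and 356 and 535 in the Snf5 CKO libraries. Of the 6, Cldn11 averaged 0.161 FPKM in controls and 1.85 in Snf5 CKO libraries. It passed the filter at a mean of 1 FPKM only through the Snf5 CKO group, so its call was favoured by the filter. The 5 Leydig cell genes, markers of the steroid-producing cells, were all lower in both Snf5 CKO libraries, beside 40.0% of all tested genes. Of them 3 were called (17.4% of all tested genes), and the list summed to 85.7 and 58.2 FPKM in controls and 19.2 and 15.1 in Snf5 CKO libraries. A called one is the locus that merges Insl3 with Jak3 (35.9 and 32.7 FPKM against 10.3 and 10.1), which cannot be assigned to Insl3 alone. The 5 stromal genes summed to 11.5 and 6.80 FPKM against 2.54 and 1.86, and the 6 blood and endothelial genes to 48.5 and 81.2 against 49.2 and 50.3. Pre-granulosa cell genes stayed between 1.95 and 3.87 FPKM in sum. Among germ cell genes, Ddx4 and Dnd1 fell and Kit rose. No marker of any list was at 0 in all 4 libraries of a table, and the part of these cells in the results was not tested.

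The libraries of replicate 1 and replicate 2 differed in level, but the ratio of Snf5 CKO to control was similar within each number. In females, Hmgcs1 was 2.70 times its control in replicate 1 and 2.06 times in replicate 2, and Fdft1 was 2.46 and 2.28 times. In males, the ratio was 3.97 and 3.13 for Cyp51, 2.11 and 2.03 for Lss, 1.96 and 1.63 for Sqle, and 0.545 and 0.558 for Fdft1. Among the pairs of ratios, only that of Fdps in males crossed 1, at 1.04 and 0.894. With the replicate number as a block, 5 genes rose and 1, Lss, fell in females, beside 34.1% and 42.6% of all tested genes in the same fit. In males 5 rose and 1, Fdft1, fell, beside 35.1% and 41.2%. The counts of called genes stayed at 2 and 1, but the block does not alter the fold changes, so no gene could be added to them.

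**Figure D2:**
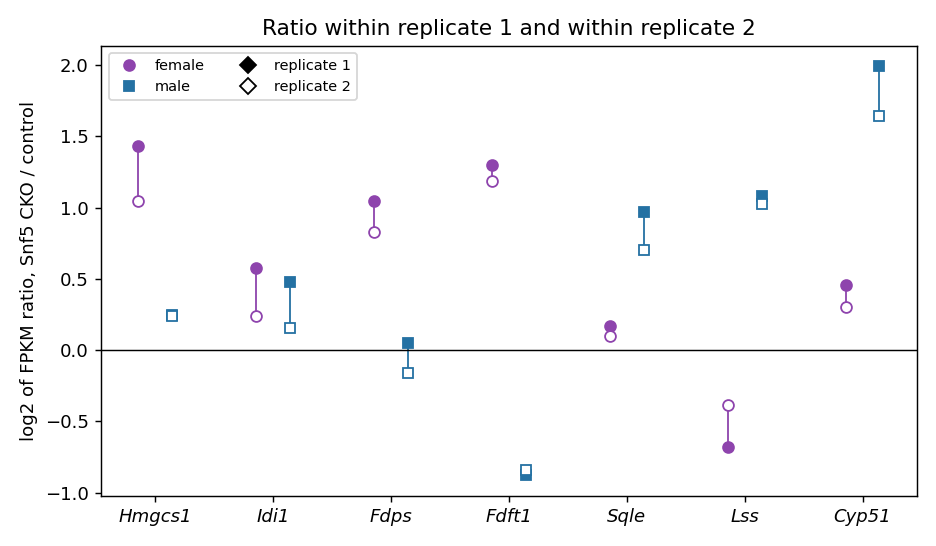
Log2 ratio of FPKM, Snf5 CKO over control, within replicate 1 (filled) and within replicate 2 (open), for the 7 genes in pathway order, with females as purple circles and males as blue squares. Fdft1 and Lss lie on opposite sides of 0 in the sexes in both replicates, and Cyp51 of males is highest.

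Set side by side, both Snf5 CKO libraries were above both controls in both sexes for 2 of the 7 genes, Idi1 and Cyp51, beside 19.6% of the 10472 genes tested in both sexes. They lay on opposite sides of the controls in the sexes for 2 genes, beside 20.7% of the genes tested in both: Fdft1, with log2 fold changes of 1.16 in females and -0.85 in males, and Lss, with -0.44 and 0.94. For Hmgcs1, Fdps and Sqle the groups overlapped in one of the sexes. None of these differences between the sexes was tested, since each sex has a table with its own normalization. Scaled so that the named loci of a library sum to 1000000, the 7 genes together made up 294 and 315 in female controls and 575 and 480 in female Snf5 CKO libraries. In males the same sums were 750.2 and 585 in controls and 797 and 437 in Snf5 CKO libraries, and these ranges overlapped.

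Another 12 enzymes of the pathway were measured in both sexes. In females 5 of 12 were called higher (17.3% of all tested genes), none was called lower (21.6%), 9 rose (26.9%) and 1 fell (34.6%), the 1 being also the count of lower genes at an unadjusted p under 0.05. In males 3 were called higher (14.4% of all tested genes), none was called lower (17.4%), 4 rose (21.0%) and 2 fell (25.3%), and 2 were lower at an unadjusted p under 0.05. The median log2 fold change of the 12 was 0.73 in females and 0.40 in males. Both Snf5 CKO libraries were above the controls in both sexes for 7 of the 12 enzymes (19.6% of all genes tested in both), and on opposite sides of the controls in the sexes for 3 (20.7%).

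Ebp and Pmvk had the largest fold changes of the 19 enzymes. Ebp, the sterol delta8-delta7 isomerase, was at 1.05 and 1.77 FPKM in the female controls and at 27.3 and 31.4 in Snf5 CKO libraries (log2 fold change 3.67, SE 0.22, adjusted p 9.85e-05). In males it was at 1.72 and 1.91 FPKM against 13.4 and 17.8 (log2 fold change 2.55, SE 0.22, adjusted p 0.00228). Pmvk, phosphomevalonate kinase, was at 4.96 and 6.56 FPKM in the female controls and at 27.5 and 40.1 in Snf5 CKO libraries (log2 fold change 2.35, adjusted p 0.000332). Both genes were above all controls by a wide margin in the 2 sexes, since Pmvk of males was at 2.78 and 4.12 FPKM in controls and at 24.7 and 30.9 in Snf5 CKO libraries (log2 fold change 2.70, adjusted p 0.00243).

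Of the further enzymes called in females, Mvd, the decarboxylase that follows Pmvk, went from 1.99 and 3.12 FPKM in controls to 6.93 and 8.68 (log2 fold change 1.32, adjusted p 0.00295) at a locus that the female table merges with Gm20735. Msmo1, a sterol C4-methyl oxidase, went from 9.77 and 10.2 to 23.4 and 22.4 FPKM (log2 fold change 1.12, adjusted p 0.00148). Dhcr7, which makes cholesterol from 7-dehydrocholesterol, went from 13.3 and 13.0 to 27.7 and 33.1 FPKM (log2 fold change 1.15, adjusted p 0.00162). Its quantification in Snf5 CKO replicate 1 has a failed status in the female table, and with loci of status OK in every library 4 of these enzymes were called higher. All 3 had no overlap between the female groups, and in males their log2 fold changes were -0.18, 0.35 and 0.29, none of which passed the test.

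In males, Tm7sf2, a sterol C14 reductase, was called higher, at 17.0 and 22.2 FPKM in controls and 51.6 and 64.4 in Snf5 CKO libraries (log2 fold change 1.52, adjusted p 0.00585), at a locus merged with Vps51. It rose in females too, by 0.64 (adjusted p 0.0174). Lbr, the other C14 reductase, rose by 0.84 in males (adjusted p 0.0251) and by 0.56 in females (adjusted p 0.0229). The enzymes for which one sex fell were Acat2, the thiolase before Hmgcs1, Nsdhl, a sterol C4 decarboxylase, and Sc5d, the sterol C5 desaturase. Acat2 had a log2 fold change of -0.97 in females (adjusted p 0.00697) and 0.97 in males (adjusted p 0.0599). Its locus differs between the tables, since the female locus also spans Mrpl18, Tcp1 and Acat3 and the male locus holds Acat2 alone. Nsdhl fell by 0.57 in males (adjusted p 0.0489) and rose by 0.58 in females (adjusted p 0.0264), and Sc5d fell by 0.72 in males (adjusted p 0.0270) and had 0.25 in females (adjusted p 0.270).

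**Figure D3:**
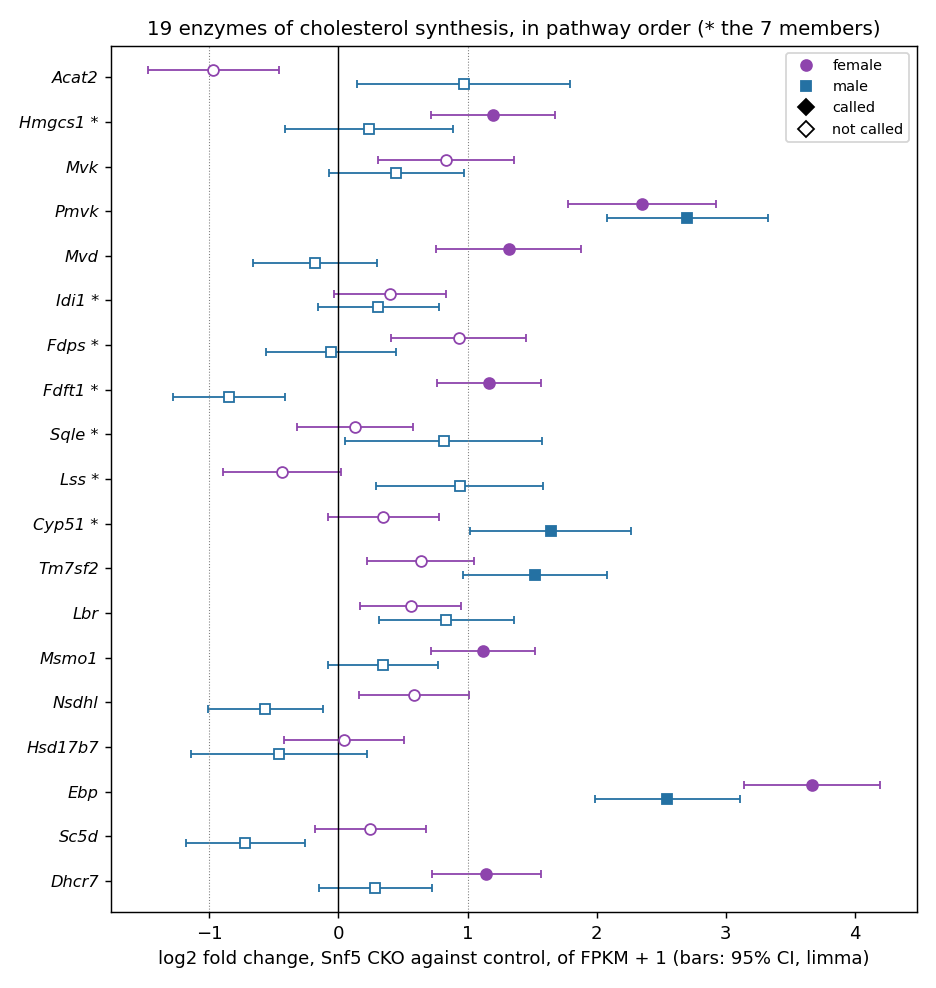
Log2 fold change of Snf5 CKO against control, on the log2(FPKM + 1) scale, for 19 enzymes of cholesterol synthesis in pathway order from top to bottom, with females as purple circles and males as blue squares. Filled symbols are called genes, bars are 95% confidence intervals from limma, and dotted lines mark the fold threshold. Ebp and Pmvk lie farthest to the right in both sexes, while Fdft1 and Lss lie on different sides of 0 in the sexes.

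Of 7 genes of the SREBP system, 2 were called higher and 3 lower in females, beside 17.3% and 21.6% of all tested genes. In males 1 was called higher and none lower, beside 14.4% and 17.4%, and 1 was lower at an unadjusted p under 0.05. Srebf2 was at 12.7 and 16.7 FPKM in the female controls and at 45.3 and 36.4 in Snf5 CKO libraries (log2 fold change 1.42, adjusted p 0.00130). In males it was at 78.1 and 50.9 FPKM in controls and 51.2 and 38.3 in Snf5 CKO libraries (log2 fold change -0.50, adjusted p 0.198). The direction of Srebf2 in females was that of Hmgcs1, Fdps and Fdft1, with no test of a link.

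Scap, the escort protein that carries SREBP to the Golgi, was at 92.0 and 81.3 FPKM in the female controls and at 35.6 and 29.1 in Snf5 CKO libraries (log2 fold change -1.40, adjusted p 0.000857), and had 0.37 in males (adjusted p 0.207). Insig2, which retains Scap in the endoplasmic reticulum, fell by 1.32 in females (adjusted p 0.00111) and had -0.55 in males (adjusted p 0.0794). Of the proteases that release SREBP, Mbtps1 rose in females by 1.16 (adjusted p 0.00420) and Mbtps2, listed with Yy2, fell by 1.29 (adjusted p 0.00224), and neither passed the test in males. Srebf1, whose product acts mainly on fatty acid genes, was called in males, with 11.2 and 9.93 FPKM in controls and 31.6 and 23.6 in Snf5 CKO libraries (log2 fold change 1.30, adjusted p 0.00843). It rose in females by 0.69 (adjusted p 0.0165).

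Among genes of sterol uptake and of transport within the cell, Lrp8, Npc1 and Npc2 were called in females and Lipa in males. Of 9 genes listed, 7 were tested in each sex, with 3 called higher and none lower in females, beside 17.3% and 21.6% of all tested genes (none lower at an unadjusted p under 0.05). In males 1 was called lower and none higher, beside 17.4% and 14.4% (1 higher at an unadjusted p under 0.05). Lrp8, a receptor of the lipoprotein receptor family, was at 0.583 and 0.633 FPKM in the female controls and at 4.12 and 3.08 in Snf5 CKO libraries. Its control level lay below the mean of 1 FPKM needed for a test, so it was tested only through the Snf5 CKO group. Its call (log2 fold change 1.51, adjusted p 0.000944) was thus favoured by the filter, and the count of 3 includes it. In males Lrp8 was below the filter. Npc1 and Npc2, which move cholesterol out of lysosomes, rose in females by 1.04 (adjusted p 0.00299) and 1.15 (adjusted p 0.00207), against 0.52 (adjusted p 0.0580) and 0.09 (adjusted p 0.748) in males. Lipa, the lysosomal lipase that frees cholesterol from its esters, was at 16.6 and 13.0 FPKM in the male controls and at 3.10 and 2.94 in Snf5 CKO libraries (log2 fold change -1.96, adjusted p 0.00299).

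Among genes of sterol efflux and storage, Abca1 and Mylip were lower in both sexes and Soat1 differed in direction. In females 1 of 7 tested genes of a list of 8 was called higher and 2 lower, near the 17.3% and 21.6% of all tested genes. In males 3 of 6 tested genes were called lower and none higher, beside 17.4% and 14.4% (none higher at an unadjusted p under 0.05). Abca1, the efflux pump of cholesterol, was at 14.0 and 6.95 FPKM in female controls and at 2.64 and 1.32 in Snf5 CKO libraries (log2 fold change -1.91, adjusted p 0.00355), and in males it fell by 1.78 (adjusted p 0.0114). Mylip, a ubiquitin ligase that degrades lipoprotein receptors, fell by 1.11 in females (adjusted p 0.00307) and by 2.03 in males (adjusted p 0.00260). Soat1, which esterifies cholesterol for storage, rose in females from 3.46 and 2.98 to 10.2 and 7.81 FPKM (log2 fold change 1.24, adjusted p 0.00235). It fell in males from 24.1 and 19.4 to 10.8 and 9.0 FPKM (log2 fold change -1.06, adjusted p 0.0129). The Leydig cell markers given above were lower in the same male libraries, although the sort by Oct4-EGFP is meant to leave such cells out, and their part in these values was not tested.

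**Figure D4:**
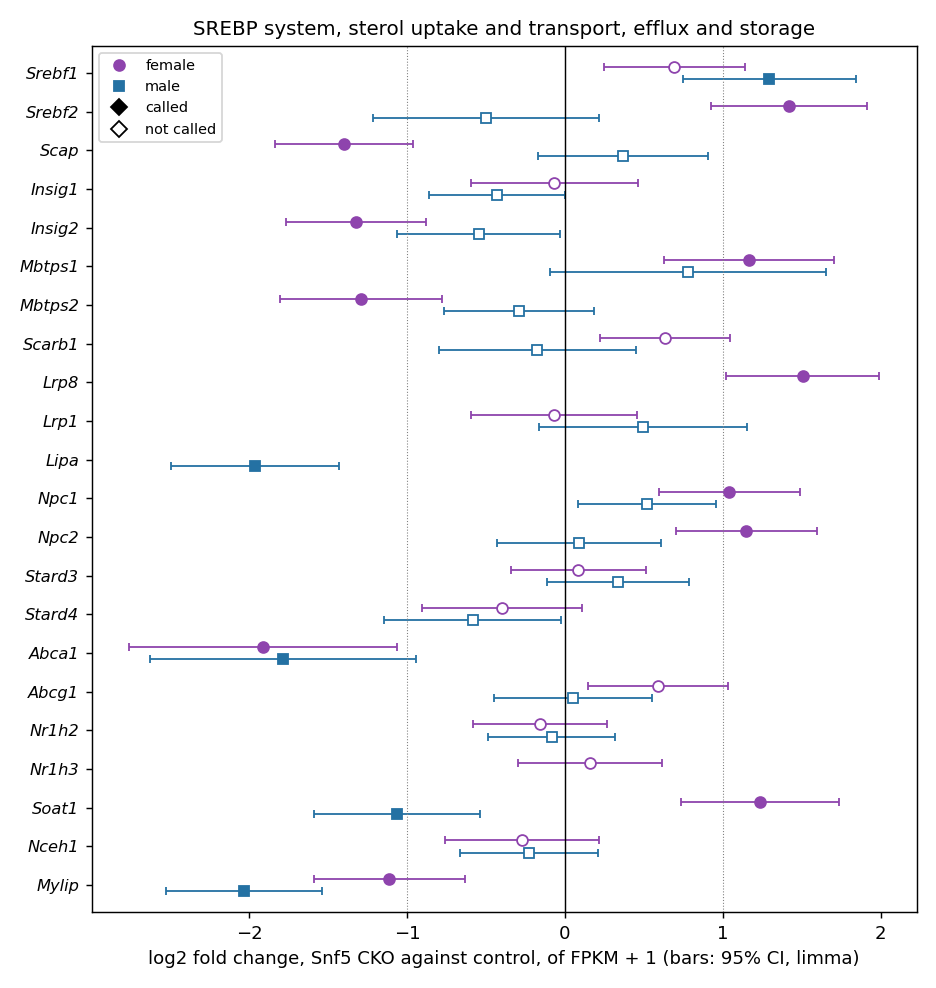
Log2 fold change of Snf5 CKO against control, on the log2(FPKM + 1) scale, for genes of the SREBP system, of sterol uptake and transport, and of efflux and storage, with females as purple circles and males as blue squares. Filled symbols are called genes, bars are 95% confidence intervals from limma, and genes below the filter in a sex have no symbol for it. Abca1 and Mylip lie to the left in both sexes, and Scap and Soat1 lie on different sides of 0.

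The isoprenoid branch leaves the pathway at Fdps. Of 9 genes of prenyl transfer and of the side chain of ubiquinone, 2 were called higher and 1 lower in females (17.3% and 21.6% of all tested genes), and 1 higher and 1 lower in males (14.4% and 17.4%). In females Fntb, the beta subunit of protein farnesyltransferase, rose by 1.56 (adjusted p 0.000408) and Rabggtb, a subunit of the transferase that prenylates Rab proteins, by 1.21 (adjusted p 0.00307) at a locus merged with Snord45c. In males they had 0.50 (adjusted p 0.0780) and 0.49 (adjusted p 0.0944). Pdss2, a subunit of the enzyme for the ubiquinone side chain, was at 21.4 and 19.1 FPKM in female controls and at 8.71 and 8.43 in Snf5 CKO libraries (log2 fold change -1.15, adjusted p 0.00155). In males it was at 7.09 and 5.92 FPKM in controls and at 18.5 and 16.9 in Snf5 CKO libraries (log2 fold change 1.32, adjusted p 0.00588). Pggt1b, merged with Ccdc112 in the male table alone, fell by 1.61 in males (adjusted p 0.00341), and the female locus of Pggt1b had -0.10 (adjusted p 0.641).

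Profiles were compared over the 8 libraries. As values of log2(FPKM + 1) minus the control mean of the same table, the mean profile of the 7 genes stood 0.53 higher in Snf5 CKO than in control in females and 0.43 higher in males. The Euclidean distance of a single gene from this profile ran from 0.377 for Idi1 to 2.03 for Fdft1. Outside the 7, the nearest of the 10465 genes compared were Bace1, a protease of neurons and other cells (0.117), Ppp2r5b (0.194), Pigo (0.195), Elf1 (0.2004) and Cdyl (0.204).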

How the data were processed

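RNA-Seq was performed by the authors on sorted E15.5 germ cells (8 libraries), with SMART-Seq v4 amplification and Nextera XT libraries. Reads were mapped and quantified on the mm10 genome. The methods name Tophat and Cufflinks, and the submitters' processing notes list TopHat2 2.2.1 and Cuffdiff 2.1.1. The authors deposited FPKM values per locus, in 1 table per sex, so tests were made within a sex only. The total depth is not known, and no counting interval is reported here. By the ratios of the lowest values, control replicate 1 differed in depth from the other libraries by 1.24 to 2.45 times in females and 0.953 to 1.46 times in males, with a multiple of these ratios not distinguishable. Confidence bounds (16 columns) were left aside.

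Named genes whose FPKM averaged 1 or more in their table were fitted with limma 3.58.1 in R 4.3.3 on log2(FPKM + 1), with eBayes and trend, two-sided. Benjamini-Hochberg adjustment was over 11529 female and 12279 male genes. p-values measure the spread between 2 samples a group, and an exact permutation test of 2 against 2 cannot go below 0.333. A gene with several loci was represented by that with the highest mean, and loci that merge genes were kept as 1 feature. An enzyme of the pathway list is not reported here, and the counts leave it out. The members and lists were chosen with earlier results of these data known. The text names all 7 members, Smarcb1, called genes of each further list, and the 5 genes with the nearest profile. Acat2, Lbr, Nsdhl, Sc5d, neighbours that share a locus and the marker genes were named after their values were seen.

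Replicate 1 libraries share a flow cell label, other than replicate 2, and the male columns call the numbers experiments. The numbers were therefore taken to mark a shared batch. The main fit did not include this batch, and a fit with it is among the alternatives below. Across genes, differences between the replicates correlated between control and Snf5 CKO with 0.500 (females) and 0.607 (males). Alternatives were a block of replicate number, no filter, a filter at a mean of 5 FPKM, a pseudocount of 0.1, rescaling by a common sum or by median of ratios, no trend, no moderation, linear FPKM, loci with status OK, summed loci and each library left out. Starts were raised by 1. The test was also run on simulated data with known changes. Those libraries were drawn independently, without differences shared by a replicate number, and no result here rests on them. Figures were drawn with matplotlib 3.10.9.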

Additional observations from a re-analysis of the deposited data

Results flagged for a closer look

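Among the 7 genes, the other 12 pathway enzymes and the called genes of the further sterol and isoprenoid lists, 8 differed in side between the sexes. For these, both Snf5 CKO libraries lay on one side of both controls in females and on the other side in males. The same pattern was present in 20.7% of the 10472 genes tested in both sexes, and the further lists were searched among called genes only. The counts of 2 among the 7 genes and 3 among the 12 other enzymes are about this share, so the pattern is not particular to the pathway. The difference between the sexes was not tested, because the tables were normalized separately. Of the 7 genes these were Fdft1, with a log2 fold change of 1.16 in females and -0.85 in males, and Lss, with -0.44 and 0.94. Among the other pathway enzymes they were Acat2 (-0.97 and 0.97, at loci that differ between the tables), Nsdhl (0.58 and -0.57) and Sc5d (0.25 and -0.72). Among the called genes of the further lists they were Scap (-1.40 and 0.37), Soat1 (1.24 and -1.06) and Pdss2 (-1.15 and 1.32).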

How the results depend on the processing

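Of the values of single genes among the 7 over all alternatives, 194 of 209 kept their direction and their call (adjusted p and fold together), 8 became called, 4 were no longer called and 3 changed direction. By the adjusted p alone, 10 newly passed 0.05 and 17 no longer did. Those 3 were small: Sqle in females was -0.022 without Snf5 CKO replicate 1 (-0.022 to 0.28 over the libraries left out), and Fdps in males was 0.11 with median-of-ratios rescaling and 0.017 without control replicate 2 (-0.13 to 0.017). Without moderation of variances, members called higher were 1 in females and 0 in males, and other pathway enzymes 2 and 0. All tested genes called higher also dropped in that setting, from 1994 to 871 in females and from 1763 to 279 in males. On linear FPKM, 0 members were called higher in males, and 1 other pathway enzyme was called lower in females. In males members called higher were 2 with a pseudocount of 0.1 and 2 with median-of-ratios rescaling (Lss added). With a common sum, 1 was called lower there (Fdft1, -1.04, adjusted p 0.0448). In females median-of-ratios rescaling gave 3 members called higher (Fdps added, 1.09, adjusted p 0.00762). With 1 library left out, members called higher ranged from 2 to 3 in females and 1 to 3 in males, members lower from 0 to 0 in both, other enzymes higher from 5 to 6 and from 3 to 5, and other enzymes lower from 0 to 1 and from 0 to 0. Male Fdft1 then had an adjusted p of 0.0575 to 0.0947. With the replicate block, members called higher stayed 2 in females and 1 in males, although more passed the adjusted p alone. The block leaves the log2 fold changes as they were, so a member below the fold threshold could not become called.

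Rescaling moved the median of all genes, from -0.13 to 0.02 in females with median-of-ratios and from -0.07 to 0.07 or, with a common sum, to -0.26 in males. The share of called genes that were higher went from 44.5% to 52.8% in females, and in males from 45.2% to 54.5% or 33.8%. Female Lss has no value under a mean of at least 5 FPKM. The depth is unknown, and 2 libraries a group limit every comparison.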
